A study of Arabidopsis thaliana with 16 samples.

Results

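The cytochrome P450 genes of Arabidopsis thaliana were examined for the Polycomb marks H2Aub and H3K27me3 in ubp5 and Col-0 seedlings. Members were the nuclear protein-coding genes of the RefSeq annotation of TAIR10.1 whose symbol or synonym is CYP followed by a family number, a letter and a number, or whose product names cytochrome P450, without 4 genes that the rule left out. This gave 252 of 27444 protein-coding genes, 222 by both criteria, 8 by name only and 22 by product only. ChIP-seq was performed on seedlings at 12 days after germination. The groups were ubp5, 1 CRISPR/Cas9 line in the Col-0 background in which a double guide removed part of the DUSP and UBP domains of the ubiquitin protease UBP5, and wild-type Col-0. Each genotype had 3 libraries for H2Aub and 2 for H3K27me3, which the study's methods describe as biological replicates, and the deposited broad peaks were called in each library separately. The 6 input samples are not analysed here.

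P450 enzymes are haem proteins that insert an oxygen atom into small molecules, with electrons usually delivered by an NADPH-dependent reductase in the endoplasmic reticulum. In plants they form one of the largest enzyme families, often as tandem arrays of young duplicates, and they make or break down most hormones, phenylpropanoids, sterols, carotenoids, surface lipids and defence compounds. H2Aub is placed by Polycomb repressive complex PRC1 and H3K27me3 by PRC2, and both are known for their place on repressed developmental and stress genes. Deubiquitinases such as the UBP family remove ubiquitin from proteins, histones among them.

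The members fell into 47 families, and 16 of them carried no family number in their symbol. Their median gene length of 2073 bp was close to the 2078 bp of all protein-coding genes, and the range ran from 460 to 5826 bp. They had few exons, with a median of 2 against 4 over all genes, and 55.2% of members had 1 or 2 exons, against 38.1% of all genes. The coding sequence was between 1400 and 1700 bp long in 193 members and under 1200 bp in 31, for example HPL1, BR6OX1 and CYP79A4P. Of the 252 genes, 43 overlapped another annotated gene by at least 1 bp, 39 of them a protein-coding one. Peaks carry no strand, so a peak on the shared bases cannot be assigned to either gene.

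A gene was counted as having a peak when at least 1 bp lay under a peak with a score over 30, and its covered length is the number of its base pairs under such peaks. A gene was called marked in a genotype when it had a peak in at least 2 libraries, the study's rule for H2Aub. The amount called differed between libraries, from 10.9 Mb in ubp5 replicate 2 to 27.8 Mb in ubp5 replicate 3 for H2Aub (11.6 to 21.2 Mb in Col-0), and from 14.2 to 14.7 Mb in ubp5 and 14.6 to 16.6 Mb in Col-0 for H3K27me3. Values therefore describe how much was called, and the read depth is not held in the peak lists. Of the H2Aub libraries, the one with the least sequence called also has the fewest uniquely mapped reads in the study's own listing, and the one with the most called has the most, and the part of depth in the results was not tested. In whole seedlings, fewer cells with a mark and less of it per cell cannot be told apart.

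The sequences shown first belong to 3 pairs of genes of 1 subfamily each, with peaks in every library of 1 genotype, and were chosen after their values were seen. Capitals mark the bases inside the stretch that lay under peaks in every library of 1 genotype and in no library of the other. The coding sequence is printed around the upstream edge of that stretch, except in CYP706A2, whose stretch began before the start codon and whose first 100 coding bases all lie inside it. CYP706A1 (AT4G22690, chr4:11929973-11930172, TAIR10, plus strand) and CYP706A2 (AT4G22710, chr4:11935038-11935137, plus strand) lay under H3K27me3 peaks only in Col-0. CYP77A9 (AT5G04630, chr5:1330578-1330714, plus strand) and UNE9, also named CYP77A7 (AT3G10560, chr3:3300106-3300305, plus strand), lay under H3K27me3 peaks only in ubp5. CYP81K2 (AT5G10600, chr5:3351269-3351468, plus strand) and its neighbour CYP81K1 (AT5G10610, chr5:3353998-3354197, plus strand) lay under H2Aub peaks in every ubp5 library. The lines give the 5′ to 3′ sequence of the coding exon, which in each of these genes is the only one.
CYP706A1: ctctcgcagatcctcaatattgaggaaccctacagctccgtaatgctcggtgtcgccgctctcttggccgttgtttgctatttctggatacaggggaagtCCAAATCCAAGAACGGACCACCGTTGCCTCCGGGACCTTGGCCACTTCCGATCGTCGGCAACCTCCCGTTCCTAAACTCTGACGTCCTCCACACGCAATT
CYP706A2: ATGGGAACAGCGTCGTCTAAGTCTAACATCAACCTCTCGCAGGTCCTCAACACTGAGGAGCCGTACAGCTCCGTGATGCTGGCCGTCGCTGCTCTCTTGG
CYP77A9: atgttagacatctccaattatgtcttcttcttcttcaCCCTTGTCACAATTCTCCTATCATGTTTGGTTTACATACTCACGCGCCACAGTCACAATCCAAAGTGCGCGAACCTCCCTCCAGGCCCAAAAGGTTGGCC
UNE9: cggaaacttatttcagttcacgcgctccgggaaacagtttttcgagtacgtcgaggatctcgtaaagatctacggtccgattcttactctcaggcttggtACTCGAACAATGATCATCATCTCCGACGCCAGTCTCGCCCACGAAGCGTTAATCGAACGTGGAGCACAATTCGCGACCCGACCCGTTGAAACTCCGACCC
CYP81K2: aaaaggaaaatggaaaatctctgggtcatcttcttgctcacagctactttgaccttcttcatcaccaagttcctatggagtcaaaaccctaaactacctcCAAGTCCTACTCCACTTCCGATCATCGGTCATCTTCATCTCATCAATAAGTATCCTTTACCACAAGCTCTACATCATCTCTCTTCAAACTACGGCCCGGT
CYP81K1: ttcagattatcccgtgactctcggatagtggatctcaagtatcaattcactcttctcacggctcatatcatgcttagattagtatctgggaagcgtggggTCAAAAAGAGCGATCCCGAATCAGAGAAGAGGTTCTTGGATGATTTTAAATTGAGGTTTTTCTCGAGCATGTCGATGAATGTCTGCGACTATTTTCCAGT

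The stretch began within the transcribed gene in all 6, between 7 bp (CYP706A2) and 714 bp (CYP706A1) from the annotated start. In CYP706A2 and CYP77A9 the printed sequence opens with the start codon. The stretch measured 1486 bp in CYP706A1, 1619 bp in CYP706A2, 784 bp in CYP77A9, 342 bp in UNE9, 487 bp in CYP81K2 and 144 bp in CYP81K1. The telobox letters AAACCCTA, a motif known from Polycomb response elements of Arabidopsis, were searched on both strands. They stood in the CYP81K2 sequence, in the lower-case bases outside the stretch, and in none of the other 5. Over the windows from 250 bases before to 50 bases after the start, which were complete for 27443 genes, the telobox stood in 9 of 252 P450 genes (3.57%), against 6.22% of all genes. The letters GAGAGAGA, searched on both strands, stood in 18 (7.14%), against 8.38% of all genes. TATAAA, searched on the strand of the gene only, stood in 126 P450 windows (50%), against 37.2% of all genes. By H3K27me3 state, the telobox was found in 7 of the 94 P450 genes marked in both genotypes (7.45%) and in 2 of the 137 marked in neither (1.46%), which is a description of letters in a window.

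P450 genes carried both marks more often than protein-coding genes in general, in every library. H2Aub peaks lay on 80.6%, 52.8% and 85.3% of P450 genes in the ubp5 libraries, and on 63.9%, 75.8% and 83.7% in the Col-0 libraries. Over all protein-coding genes the shares were 69.4%, 40.1% and 78.8% in ubp5 and 33.3%, 46.5% and 59.0% in Col-0. The ubp5 replicate 2 library, with the least sequence called, was the lowest of the 6 for P450 genes, and the genotypes overlapped. H3K27me3 peaks lay on 40.5% and 43.7% of P450 genes in ubp5, and on 44.8% and 48.4% in Col-0, against 21.6% and 22.5% of all genes in ubp5 and 21.0% and 23.7% in Col-0. For H3K27me3, with the lists as called, the ubp5 libraries were below both Col-0 libraries in the P450 genes, whereas over all genes the genotypes overlapped. With the lists reduced to the same covered length, the P450 shares were 40.5% and 40.9% in ubp5, and 42.9% and 38.9% in Col-0. The genotypes then overlapped in the P450 genes, and over all genes both ubp5 libraries were above both Col-0 libraries.

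As a share of gene length, H2Aub peaks covered 45.8% ± 15.5 of the P450 genes in ubp5 and 50.3% ± 7.62 in Col-0 (SD, n = 3 each). The corresponding shares over all genes were 25.1% ± 9.37 in ubp5 and 19.5% ± 5.58 in Col-0. H3K27me3 peaks covered 29.4% ± 1.2 of P450 gene length in ubp5 and 34.8% ± 2.33 in Col-0 (SD, n = 2 each), with 12.2% ± 0.283 and 12.7% ± 0.99 over all genes in ubp5 and Col-0. The P450 share was also divided by the share of all genes in the same library, which sets it beside the amount called there. For H2Aub this ratio was 1.82, 1.95 and 1.78 in ubp5 and 3.01, 2.63 and 2.29 in Col-0. For H3K27me3 it was 2.37 and 2.43 in ubp5 and 2.77 and 2.71 in Col-0. All ubp5 libraries were thus lower than all Col-0 libraries in both marks, relative to their own genome-wide cover. With every H2Aub list reduced to the same covered length, the ratio was 1.81, 1.95 and 1.82 in ubp5 and 3.03, 2.91 and 2.87 in Col-0.

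**Figure D1:**
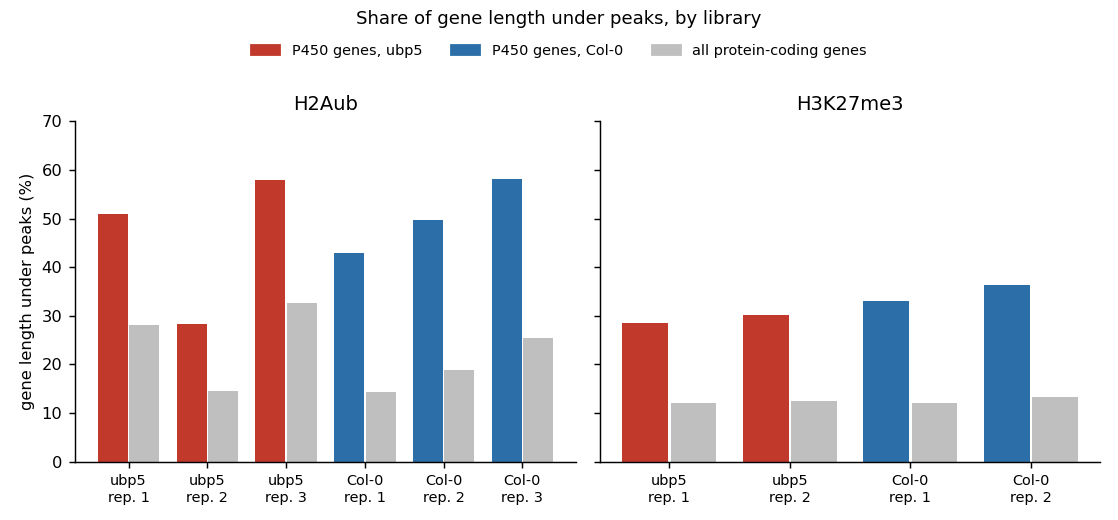
Bars give the percentage of summed gene length under peaks (score over 30) in each library, for the 252 P450 genes (red, ubp5; blue, Col-0) and for all 27444 protein-coding genes (grey), with H2Aub on the left and H3K27me3 on the right. Each bar is 1 library, and every coloured bar stands above its grey bar, from 28.4% against 14.6% in ubp5 replicate 2 for H2Aub to 36.4% against 13.4% in Col-0 replicate 2 for H3K27me3.

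Along the gene, both marks covered the body of P450 genes more than the flanks. H2Aub cover was highest in the third of 10 equal bins of the gene, at 59.7% ± 15.9 of bases in ubp5 and 62.0% ± 8.26 in Col-0 (SD, n = 3 each). Over all genes it was highest in the second bin, at 49.6% ± 18.0 in ubp5 and 34.4% ± 10.3 in Col-0. In the ninth bin the P450 genes still had 34.0% ± 15.5 in ubp5 and 41.4% ± 8.01 in Col-0, against 17.0% ± 7.97 and 16.9% ± 5.12 over all genes in ubp5 and Col-0. H3K27me3 cover of the P450 genes in the seventh bin was 28.6% ± 0.778 in ubp5 and 35.2% ± 1.2 in Col-0 (SD, n = 2 each). In the 100 bp before the start it was 18.6% ± 0.707 in ubp5 and 24.8% ± 4.24 in Col-0. The mean of ubp5 lay below that of Col-0 in every bin of the H3K27me3 profile, both in these genes and over all genes. Over all genes the seventh bin had 16.8% ± 0.354 in ubp5 and 17.9% ± 1.34 in Col-0. In the outermost downstream bin the P450 libraries overlapped, at 16.1% and 16.4% in ubp5 and 15.5% and 18.5% in Col-0. Peaks that touched P450 genes were wide for H2Aub, with medians from 1341.5 to 1795.5 bp in ubp5 and from 1612 to 1758 bp in Col-0, against 845 to 1048 bp in ubp5 and 1020 to 1121 bp in Col-0 for peaks on any gene.

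**Figure D2:**
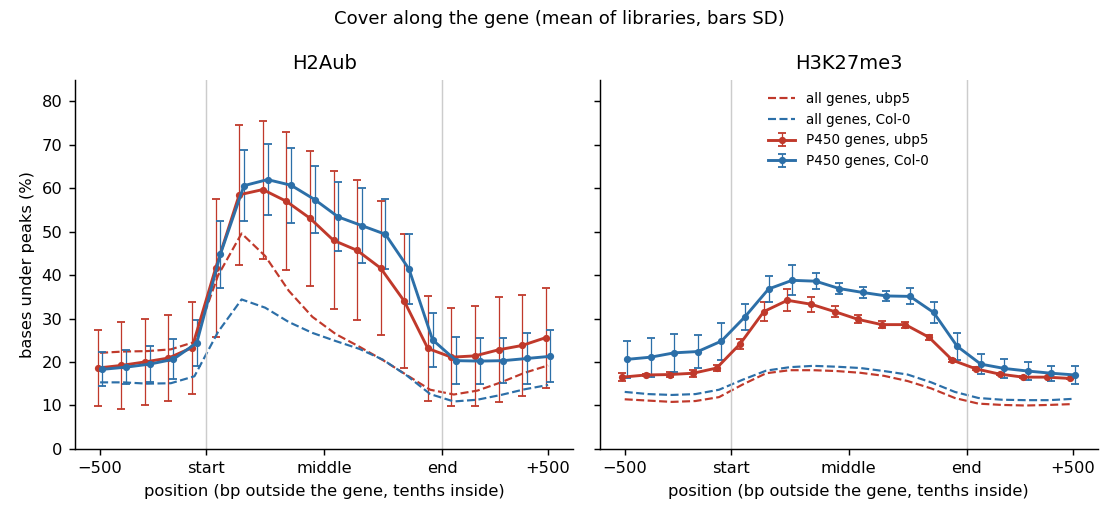
The percentage of bases under peaks is plotted along the gene, in 100-bp steps outside it and 10 equal bins inside it, as the mean of the libraries of a genotype (red, ubp5; blue, Col-0) with SD bars for the 252 P450 genes (solid) and as the mean for all protein-coding genes (dashed). H2Aub on P450 genes peaked at 59.7% in ubp5 and 62.0% in Col-0, and the H3K27me3 line of ubp5 ran below that of Col-0 throughout the gene body.

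H2Aub marked 205 P450 genes in ubp5 (81.3%) and 192 in Col-0 (76.2%), whereas over all genes the shares were 69.0% in ubp5 and 46.8% in Col-0. This order turned round at equal covered length, where 12 P450 genes were marked only in ubp5 (4.76%, against 13.3% of all), 57 only in Col-0 (22.6%, against 9.56% of all) and 81 in both. Cutting every list to the same length takes out any genome-wide difference in the amount called. These counts therefore place P450 genes relative to other genes and cannot show whether they lost H2Aub. With the lists as called, most P450 genes were marked in both, 188 of 252 (74.6%, against 43.9% of all protein-coding genes). Marked only in ubp5 were 17 (6.75%, against 25.1% of all), and marked only in Col-0 were 4 (1.59%, against 2.87% of all). Among the 60 P450 genes unmarked in Col-0, the 17 marked in ubp5 were 28.3%, against 47.1% of all genes unmarked in Col-0. Covered length was longer in every ubp5 library than in any Col-0 library in 8 P450 genes (3.17%, against 13.7% of all) and shorter in every ubp5 library in 24 (9.52%, against 3.51% of all). Among all genes the longer class was thus the larger, and among P450 genes the shorter class, but without ubp5 replicate 2 the longer class was the larger among P450 genes too, with 49 longer (19.4%, against 36.9% of all) and 24 shorter (9.52%, against 3.64% of all). Over the 188 genes marked in both genotypes, the median of the difference in covered share, ubp5 minus Col-0, was -5.36 percentage points, against 0.171 for the 12050 such genes overall.

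The other counts moved with single libraries, and those over all genes moved with them. P450 genes marked only in ubp5 numbered 5 without ubp5 replicate 1 (1.98%, against 9.56% of all) and 5 without ubp5 replicate 3 (1.98%, against 9.45%). They numbered 46 without Col-0 replicate 2 (18.3%, against 37.3%) and 49 without Col-0 replicate 3 (19.4%, against 38.1%). Those marked only in Col-0 numbered 65 without ubp5 replicate 1 (25.8%, against 16.3% of all) and 67 without ubp5 replicate 3 (26.6%, against 16.4%), so that the P450 share then lay above that of all genes. They numbered 1 without Col-0 replicate 2 (0.397%, against 1.23%) and 1 without Col-0 replicate 3 (0.397%, against 0.991%). Those marked in both numbered 125 without ubp5 replicate 3 (49.6%, against 30.4% of all). Genes longer in every ubp5 library numbered 17 without Col-0 replicate 3 (6.75%, against 19% of all). Genes shorter in every ubp5 library numbered 50 without ubp5 replicate 3 (19.8%, against 7.47%) and 48 without Col-0 replicate 1 (19%, against 8.81%). With the 2-library rule and 1 library removed, a peak was needed in both that were left.

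No single gene could pass a threshold of 0.05 in this design. The exact permutation test of 3 against 3 libraries (two-sided) cannot give a p below 0.1, and that of 2 against 2 none below 0.33, and after Benjamini-Hochberg adjustment over all genes with a peak the smallest values were 0.474 for H2Aub and 0.783 for H3K27me3. Differences of single genes are therefore given as values, with a statement of whether the libraries of the genotypes overlap.

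CYP81K2 was the only P450 gene with an H2Aub peak in every ubp5 library and in no Col-0 library (0.397%), whereas 1290 genes overall had this pattern (4.7%). Its covered length was 569, 487 and 636 bp in ubp5, against 0 bp in all 3 Col-0 libraries. The adjacent CYP81K1 had 702, 820 and 769 bp in ubp5, against 0, 0 and 426 bp in Col-0. Both genes of this pair, whose products are not assigned a role here, were free of H3K27me3 peaks in all 4 libraries. CYP91A2, also known as CYP81F1, which modifies indole glucosinolates, had 1379, 1189 and 1613 bp in ubp5, against 0, 0 and 1151 bp in Col-0. Its difference of 1010 bp was the largest H2Aub difference in this direction among the genes with separated libraries. The other 14 genes marked only in ubp5 overlapped between genotypes, and 12 of these had no peak in ubp5 replicate 2. The 4 genes marked only in Col-0, CYP96A3, CYP96A2, CYP71B30P and CYP71B14, are named after their values were seen. CYP96A2 had 0, 0 and 0 bp in ubp5, against 0, 920 and 1581 bp in Col-0. CYP96A3 had 0, 0 and 0 bp in ubp5, against 0, 631 and 1350 bp in Col-0. No P450 gene had an H2Aub peak in every Col-0 library and in no ubp5 library.

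Of the 188 genes marked in both genotypes, 5 had longer H2Aub cover in every ubp5 library (2.66%, against 13.3% of the 12050 such genes overall). C4H, the cinnamate 4-hydroxylase that opens the P450 steps of phenylpropanoid synthesis, had 1471, 1089 and 1270 bp in ubp5, against 0, 476 and 572 bp in Col-0. CYP94D2 had 1334, 1298 and 1348 bp in ubp5, against 0, 1076 and 1238 bp in Col-0. CYP705A13 had 1562, 1346 and 1583 bp in ubp5, against 742, 946 and 1171 bp in Col-0. C4H thus had the largest separation of the 5, and in both C4H and CYP94D2 the lowest value was Col-0 replicate 1. CYP71B34 had a mean of 1231 bp ± 159 in ubp5 and 775 bp ± 57.2 in Col-0 (SD, n = 3 each). The last, CYP82C2, which hydroxylates an indole cyanogenic defence compound, was covered over its full 2214 bp in all ubp5 libraries and over 2061, 2077 and 2089 bp in Col-0. Its difference of 138 bp had the opposite sign with stricter lists, at -600.0 bp with a score over 60 and -1337.7 bp at equal covered length.

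The 24 genes with shorter H2Aub cover in every ubp5 library were 9.52% of P450 genes, against 3.51% of all genes. All 24 were marked in both genotypes, and they were 12.8% of the 188 such P450 genes, against 6.96% of the 12050 such genes. They included 2 of the 6 brassinosteroid synthesis genes and 3 of the 7 phenylpropanoid and flavonoid genes. Also among them were 2 glucosinolate genes, 2 jasmonate and oxylipin genes and 11 genes with no role assigned here. ROT3, the brassinosteroid C-23 hydroxylase CYP90C1, had 561, 514 and 2635 bp in ubp5, against 3608, 2788 and 2760 bp in Col-0. CYP72A14 had 855, 0 and 911 bp in ubp5, against 2159, 2198 and 2273 bp in Col-0. BR6OX2, the brassinolide synthase CYP85A2, had 601, 586 and 654 bp in ubp5, against 1520, 1489 and 1556 bp in Col-0. The BR6OX2 libraries were tight within each genotype, and those of ROT3 were not, with ubp5 replicate 3 close to the Col-0 values. CYP81H1 averaged 1568.3 bp ± 97.1 in ubp5 and 2900.3 bp ± 529 in Col-0 (SD, n = 3 each). CYP72A11 averaged 944 bp ± 84.9 in ubp5 and 2043.3 bp ± 902 in Col-0. One value of the Col-0 libraries, 1002 bp, stood next to those of ubp5. CYP706A6 averaged 1812 bp ± 79.1 in ubp5 and 2744 bp ± 191 in Col-0. Of the rest, CYP83B1, the committed step of indole glucosinolates, CYP707A1, an abscisic acid 8′-hydroxylase, and CYP78A9, which promotes seed and fruit size, differed by smaller lengths with no overlap between genotypes.

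H3K27me3 marked fewer P450 genes in ubp5 than in Col-0, 98 (38.9%) against 111 (44.0%), while over all genes each share was 20.6%. Marked in both were 94 (37.3%, against 17.7% of all). Marked only in ubp5 were 4 (1.59%, against 3.00% of all), and marked only in Col-0 were 17 (6.75%, against 2.98% of all). Covered length was longer in every ubp5 library in 7 genes (2.78%, against 3.48% of all) and shorter in every ubp5 library in 54 (21.4%, against 8.10% of all). Among the genes marked in Col-0, the 17 were 15.3% of 111 P450 genes and 14.4% of all marked genes, shares within 1 percentage point of each other. Within the 94 genes marked in both, 39 were shorter in every ubp5 library (41.5%), against 30.7% of the 4845 such genes overall. At equal covered length, 89 were marked in both (35.3%, against 16.3% of all). Those marked only in ubp5 then numbered 6 (2.38%, against 3.8% of all) and those only in Col-0 7 (2.78%, against 1.93% of all). The lower number of marked P450 genes in ubp5 was thus nearly absent in this setting. Shorter cover was still found in 43 (17.1%, against 6.76% of all).

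With 1 library left out, the H3K27me3 rule rests on the single library left to that genotype, and some counts moved. Genes marked only in ubp5 numbered 8 without ubp5 replicate 1 (3.17%, against 4.01% of all) and 2 without Col-0 replicate 1 (0.794%, against 2.16%). Genes marked only in Col-0 numbered 9 without ubp5 replicate 1 (3.57%, against 2.16% of all) and 26 without Col-0 replicate 1 (10.3%, against 5.17%). Genes longer in ubp5 numbered 16 without ubp5 replicate 1 (6.35%, against 5.32% of all) and 18 without Col-0 replicate 2 (7.14%, against 6.05%), in both cases above the share of all genes. The number of shorter genes stayed between 58 and 80 over the 4 cases (23.0% to 31.7%, against 8.78% to 13.0% of all).

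Of the 17 genes marked by H3K27me3 only in Col-0, 7 had no peak in either ubp5 library (2.78% of P450 genes, against 1.79% of all genes). CYP76C7 had 0 and 0 bp in ubp5, against 2059 and 2153 bp in Col-0, the second value being its full length. CYP706A2 had 0 and 0 bp in ubp5, against 1648 and 1626 bp in Col-0, and its neighbour CYP706A1 had 0 and 0 bp in ubp5, against 1486 and 1754 bp in Col-0. The remaining genes without a ubp5 peak, CYP86C1, AT3G61035, CYP71B32 and CYP71A14, had between 229 and 1478 bp in Col-0. CYP706A1 carried H2Aub in both genotypes, with 1631, 1647 and 1616 bp in ubp5, against 1396, 1659 and 1690 bp in Col-0. On CYP706A2 H2Aub covered 1506, 1466 and 1840 bp in ubp5, against 1542, 1436 and 1536 bp in Col-0, so the genotypes overlapped for H2Aub in both genes of the pair whose sequences are shown above.

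The other 10 genes marked only in Col-0 had a peak in 1 ubp5 library. CYP81F2, which hydroxylates indole glucosinolates for antimicrobial defence, had 0 and 452 bp in ubp5, against 1311 and 1583 bp in Col-0. CYP86A2, a fatty acid hydroxylase of cutin synthesis, had 0 and 633 bp in ubp5, against 994 and 907 bp in Col-0. CYP710A2, a sterol C-22 desaturase, had 0 and 639 bp in ubp5, against 1076 and 1119 bp in Col-0. In these 3 the genotypes did not overlap. CYP714A2, which inactivates gibberellins, had 0 and 1215 bp in ubp5, against 1032 and 1177 bp in Col-0, so its genotypes overlapped. The same held for CYP71B5, with 0 and 1437 bp in ubp5, against 1288 and 1605 bp in Col-0. CYP86A7, CYP89A6, CYP96A13, CYP705A33 and CYP71B11 made up the rest, with ubp5 values between 0 and 1489 bp, and in each of them both ubp5 values lay below both Col-0 values.

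The 4 genes marked by H3K27me3 only in ubp5 were UNE9, CYP77A9, BAS1 and AT1G66540. CYP77A9 had 802 and 819 bp in ubp5, against 0 and 0 bp in Col-0. UNE9 had 520 and 512 bp in ubp5, against 0 and 0 bp in Col-0. Both belong to the CYP77A subfamily of fatty acid-oxidising enzymes, and both were also marked by H2Aub in each genotype. BAS1, which inactivates brassinosteroids by C-26 hydroxylation, had 541 and 721 bp in ubp5, against 0 and 589 bp in Col-0, and AT1G66540 had 366 and 470 bp in ubp5, against 0 and 425 bp in Col-0. For BAS1 and AT1G66540 the genotypes overlapped.

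**Figure D3:**
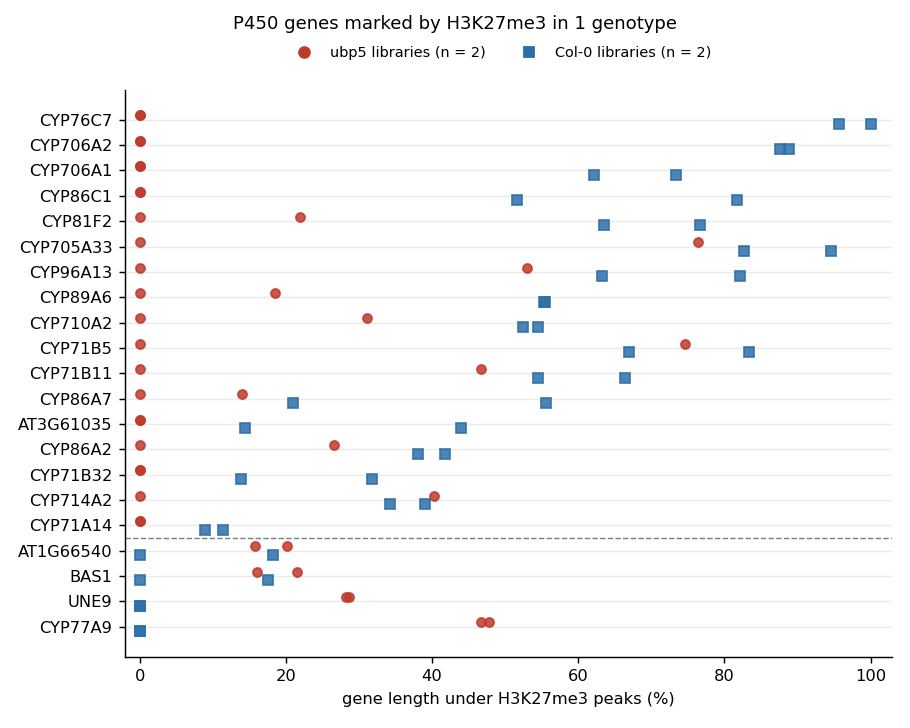
Each row is 1 of the 21 P450 genes marked by H3K27me3 in only 1 genotype, with the percentage of its length under H3K27me3 peaks on the x axis and 2 libraries per genotype (red circles, ubp5; blue squares, Col-0). The 17 genes above the dashed line were marked only in Col-0 and the 4 below it only in ubp5, and CYP76C7, CYP706A2 and CYP706A1 at the top have both ubp5 points at 0%.

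Among genes marked in both genotypes, the largest differences in H3K27me3 cover, shorter in every ubp5 library, were in ROT3, CYP82G1, CYP79A3P, CYP81F4 and CYP83A1. ROT3 had 543 and 776 bp in ubp5, against 1242 and 2720 bp in Col-0. CYP82G1, which forms a homoterpene volatile, had 379 and 1353 bp in ubp5, against its full 2164 bp in both Col-0 libraries. CYP79A3P had 765 and 777 bp in ubp5, against 1986 and 1868 bp in Col-0. In CYP82G1 there was no H2Aub peak in any of the 6 libraries, whereas ROT3 was also shorter in H2Aub. CYP81F4, which hydroxylates indole glucosinolates, had 761 and 833 bp in ubp5, against 1679 and 2149 bp in Col-0. CYP83A1, the aldoxime-metabolising enzyme of aliphatic glucosinolates, had 471 and 650 bp in ubp5, against 1587 and 1695 bp in Col-0. The opposite order was led by CYP715A1, with 2886 and 2932 bp in ubp5, against 1759 and 1822 bp in Col-0, followed by CYP81D7, CYP71A20, CYP82C2 and CYP724A1 with differences from 142 to 270 bp.

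The longest H3K27me3 cover over the 4 libraries was found on CYP702A3 (3491 bp), CYP76C6 (3251 bp), CYP702A5 (3163 bp) and CYP702A6 (3030 bp), each under peaks over its whole length in every library of both genotypes. CYP735A1, a cytokinin hydroxylase, followed with 3028 and 2937 bp in ubp5, against 3030 and 3038 bp in Col-0. For H2Aub the longest was CYP707A2, an abscisic acid 8′-hydroxylase, with 3022, 3176 and 3313 bp in ubp5, against 3178, 3249 and 3388 bp in Col-0. It was followed by CYP715A1, BAS1, CYP79B3 and CYP714A1. BAS1 had 3211, 265 and 3235 bp of H2Aub in ubp5, against 3217, 3223 and 3260 bp in Col-0, so that ubp5 replicate 2 alone stood apart. At the other end, 18 members had no peak of either mark in any library, among them CYP718, CYP87A2 and CYP708A1.

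Both marks together were called on 83 P450 genes in ubp5 (32.9%, against 15.3% of all genes) and on 93 in Col-0 (36.9%, against 14.2% of all). The count in ubp5 was 53 without ubp5 replicate 1 (21.0%, against 9.46% of all) and 52 without ubp5 replicate 3 (20.6%, against 9.44%). Of the P450 genes with H3K27me3, H2Aub was also called on 84.7% in ubp5 and 83.8% in Col-0, against 74.1% and 69.0% of all genes with H3K27me3 in ubp5 and Col-0. No P450 gene was free of both marks in Col-0 and carried both in ubp5, whereas 223 genes overall did (0.813%). Of the 54 genes with shorter H3K27me3 cover in ubp5, 48 were marked by H2Aub in both genotypes (88.9%, against 75.4% of all such genes) and 11 also had shorter H2Aub cover, and these 11 were 4.37% of P450 genes compared with 0.7% of all genes. They included ROT3, FAH1, CYP94B1, CYP94B3 and CYP81F3. H3K27me3 was called in Col-0 on 4 of the 17 P450 genes with H2Aub called in ubp5 alone (23.5%, against 6.33% of all such genes). Both shares lay below those without regard to H2Aub, 44.0% of P450 genes and 20.6% of all genes. P450 genes with neither mark numbered 32 in ubp5 (12.7%, against 25.7% of all) and 42 in Col-0 (16.7%, against 46.8% of all).

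**Figure D4:**
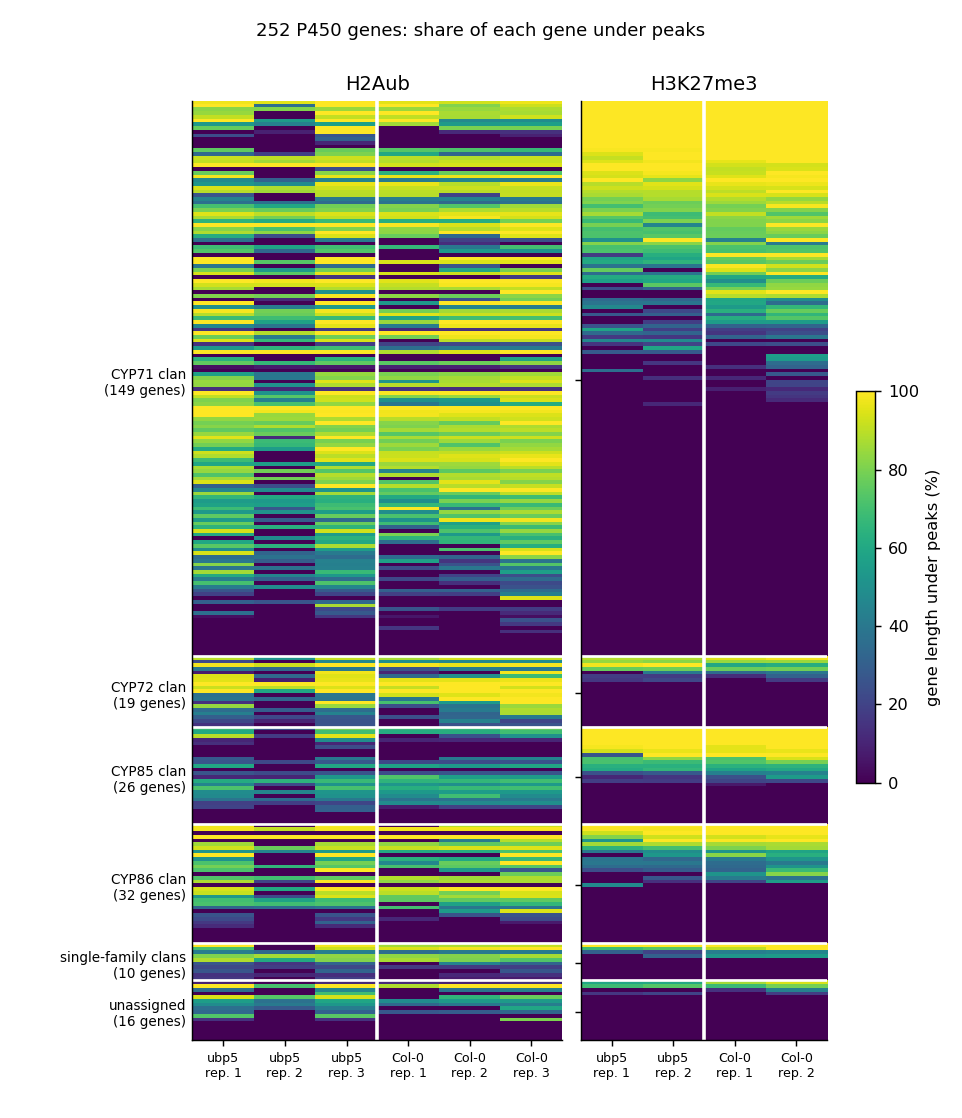
Each row is 1 of the 252 P450 genes and each column 1 library, grouped by clan (an evolutionary grouping of families) and ordered within a clan by mean H3K27me3 cover, and colour gives the percentage of the gene under peaks from 0 to 100. The H3K27me3 columns show blocks of fully covered genes in both genotypes and a zone where the 2 ubp5 columns are darker than the 2 Col-0 columns, and ubp5 replicate 2 is the darkest H2Aub column.

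The 149 genes of the CYP71 clan, the largest, had H2Aub in 83.9% in ubp5 and 79.2% in Col-0, and H3K27me3 in 39.6% and 45.0% in ubp5 and Col-0. All 19 genes of the CYP72 clan carried H2Aub in both genotypes, as did 74.6% of P450 genes and 43.9% of all genes. In each genotype 6 of the 19 carried H3K27me3 (31.6%). The H3K27me3 shares over P450 genes were 38.9% in ubp5 and 44.0% in Col-0, and over all genes 20.6% in each. The 26 genes of the CYP85 clan, which holds many sterol, triterpenoid and hormone enzymes, had the lowest H2Aub cover of the 4 multi-family clans, with means of 25.4% of gene length in ubp5 and 29.4% in Col-0, and the most frequent H3K27me3, 15 of 26 in each genotype. In the CYP86 clan of 32 fatty acid hydroxylases and relatives, H3K27me3 was called on 12 in ubp5 and 16 in Col-0. Of the 32, 10 were shorter in every ubp5 library, where the share was 21.4% over the P450 genes and 8.10% over all genes. Genes with 1 or 2 exons and genes with 3 or more had H3K27me3 on 37.4% and 40.7% in ubp5, and on 42.4% and 46.0% in Col-0.

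Brassinosteroid synthesis uses 6 P450 genes, all marked by H2Aub in both genotypes, as were 74.6% of P450 genes and 43.9% of all genes. Mean cover of the group was 35.5%, 17.9% and 44.0% of gene length in ubp5, against 49.2%, 46.9% and 49.2% in Col-0. ROT3 and BR6OX2 were the 2 with shorter H2Aub cover in every ubp5 library, and all ubp5 values of the group lay below those of Col-0. DWF4, the C-22 hydroxylase at the rate-limiting step, had 2493, 0 and 2454 bp in ubp5, against 2163, 2335 and 2391 bp in Col-0. CPD had 1664, 1514 and 1718 bp in ubp5, against 1641, 1641 and 1794 bp in Col-0. Neither was marked by H3K27me3. CYP90D1, which acts beside ROT3, had 2158 and 2067 bp of H3K27me3 in ubp5, against 2209 and 2404 bp in Col-0. The inactivating genes BAS1 and CYP72C1 were marked by H2Aub in both genotypes.

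Gibberellin synthesis genes carried no H3K27me3, whereas the inactivating CYP714A1 and CYP714A2 did in Col-0. GA3, the ent-kaurene oxidase CYP701A3, had 953, 0 and 725 bp of H2Aub in ubp5, against 0, 0 and 314 bp in Col-0. CYP88A3 and KAO2, the ent-kaurenoic acid oxidases, and GA3 had no H3K27me3 peak in any library. The gibberellin-inactivating CYP714A1 had H3K27me3 over 2543 and 2534 bp in ubp5, against 2714 and 2817 bp in Col-0. Of the 4 abscisic acid 8′-hydroxylases, all carried H2Aub in both genotypes, as did 74.6% of P450 genes and 43.9% of all genes. Among the 4, 2 also carried H3K27me3, CYP707A2 and CYP707A4. The cytokinin hydroxylases CYP735A1 and CYP735A2 had H3K27me3 over a mean of 80.4% ± 0.506 of gene length in ubp5 and 81.3% ± 0.566 in Col-0 (SD, n = 2 each). CYP711A1, the strigolactone enzyme MAX1, had only short H2Aub cover, with 370, 272 and 335 bp in ubp5, against 0, 295 and 368 bp in Col-0.

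The 4 members assigned here to jasmonate and oxylipin metabolism, which need not be every P450 of these pathways, all carried both marks in both genotypes. Both marks stood on 32.9% of P450 genes in ubp5 and 36.9% in Col-0, and on 15.3% and 14.2% of all genes in ubp5 and Col-0. CYP94B3, which oxidises the active jasmonate conjugate, had 775 and 939 bp of H3K27me3 in ubp5, against 1002 and 1123 bp in Col-0. Its H2Aub cover was 1001, 872 and 1054 bp in ubp5, against 1159, 1191 and 1372 bp in Col-0. CYP94B1, of the same activity, had 734 and 640 bp of H3K27me3 in ubp5, against 777 and 991 bp in Col-0. Neither mark overlapped between genotypes in CYP94B3 and CYP94B1. HPL1, a hydroperoxide lyase, had 1020 and 676 bp of H3K27me3 in ubp5, against 1414 and 1496 bp in Col-0, while CYP94C1 overlapped.

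The 11 glucosinolate genes were among the most heavily marked. H3K27me3 covered on average 48.7% and 53.4% of their length in ubp5, against 66.1% and 70.8% in Col-0, while H2Aub covered 81.1%, 52.7% and 84.7% in ubp5, against 65.7%, 72.2% and 81.8% in Col-0. The genotypes were separated for H3K27me3 and overlapped for H2Aub. Shorter H3K27me3 cover in every ubp5 library was found in 5 of the 11: CYP83A1, CYP81F2, CYP81F3, CYP81F4 and CYP79B2, where the share was 21.4% over the P450 genes and 8.10% over all genes. CYP79B2, which converts tryptophan to indole-3-acetaldoxime, had 1567 and 1661 bp in ubp5, against 1896 and 1972 bp in Col-0. Its paralogue CYP79B3 had 2848 and 2945 bp in ubp5, against 2884 and 2992 bp in Col-0, and CYP79F2 was covered over its whole 2455 bp in every library. CYP79F1, which acts with CYP79F2 on methionine derivatives, had 2393 and 2429 bp in ubp5, against 2421 and 2438 bp in Col-0. CYP83B1 had no H3K27me3 peak.

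In camalexin synthesis, PAD3, which catalyses the last step, had H2Aub over 1193, 0 and 1197 bp in ubp5, against 0, 0 and 1077 bp in Col-0, and was not called for H3K27me3 in either genotype. CYP71A13, the upstream aldoxime dehydratase, was under H3K27me3 over its whole 2080 bp in every library. Its homologue CYP71A12 had 1074 and 1120 bp of H3K27me3 in ubp5, against 934 and 1462 bp in Col-0. For H3K27me3 the genotypes overlapped in all 3.

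All 7 genes of phenylpropanoid and flavonoid metabolism were marked by H2Aub in both genotypes, as were 74.6% of P450 genes and 43.9% of all genes. C4H was the only one of the 7 with longer cover in every ubp5 library. FAH1, the ferulate 5-hydroxylase of syringyl lignin, had 1912, 1011 and 1920 bp of H2Aub in ubp5, against 1944, 2401 and 2431 bp in Col-0. CYP98A9, a pollen phenolamide enzyme, had 452, 0 and 482 bp in ubp5, against 515, 531 and 592 bp in Col-0. CYP84A4 had 1557, 766 and 1553 bp in ubp5, against 1588, 1653 and 1727 bp in Col-0. These 3 lay lower in every ubp5 library, with ubp5 replicate 2 lowest each time. FAH1 also had 413 and 394 bp of H3K27me3 in ubp5, against 784 and 963 bp in Col-0. CYP98A3, which hydroxylates the coumaroyl ester of shikimate, had 1430, 760 and 898 bp of H2Aub in ubp5, against 1324, 2529 and 2557 bp in Col-0, and TT7, the flavonoid 3′-hydroxylase, overlapped in both marks.

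**Figure D5:**
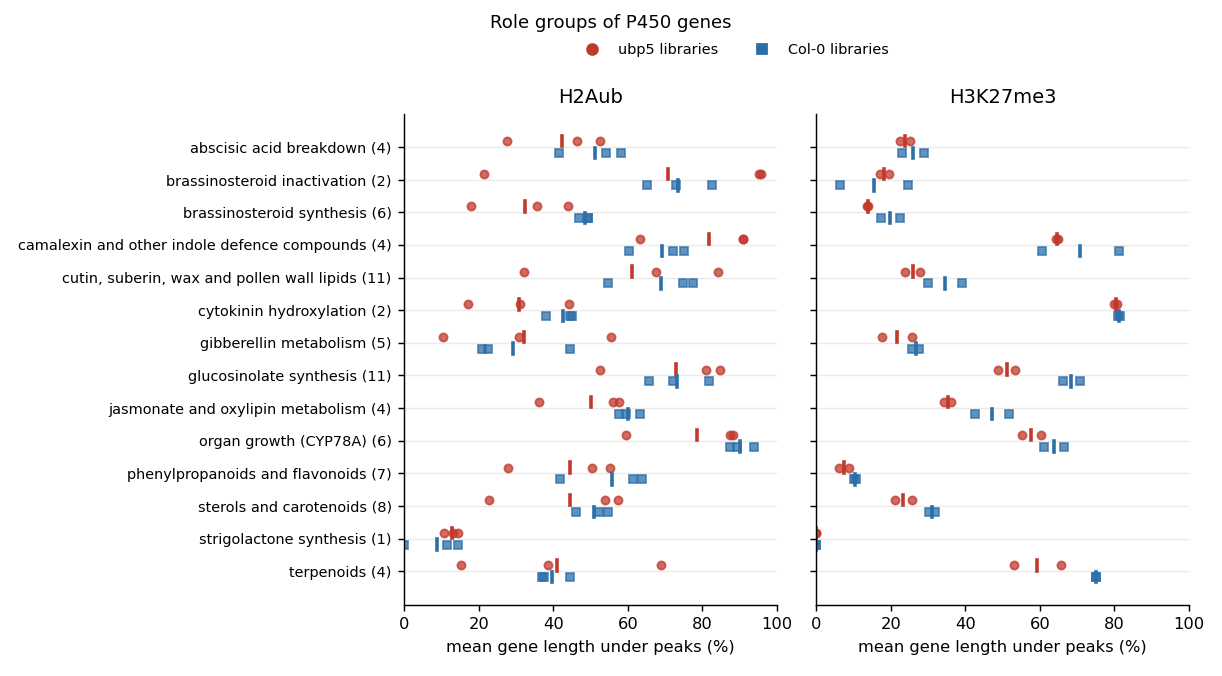
For each role group (number of genes in parentheses) the mean percentage of gene length under peaks is plotted, 1 point per library and a vertical line at the mean of the libraries (red circles, ubp5; blue squares, Col-0), with H2Aub on the left and H3K27me3 on the right. The glucosinolate genes stand at 48.7% and 53.4% H3K27me3 cover in ubp5, left of 66.1% and 70.8% in Col-0, and the outlying low red point of most H2Aub rows is ubp5 replicate 2.

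In the surface lipid group, H3K27me3 was called on 4 of 11 genes in ubp5 (36.4%) and 6 of 11 in Col-0 (54.5%). The shares over P450 genes were 38.9% in ubp5 and 44.0% in Col-0, and over all genes 20.6% in each. CYP86A1, the root suberin hydroxylase, had 2311 and 2292 bp in ubp5, against its full 2321 bp in both Col-0 libraries. CYP86B1, which hydroxylates very long chain suberin monomers, had 679 and 803 bp in ubp5, against 900 and 1916 bp in Col-0. CYP96A15, the midchain alkane hydroxylase of stem wax, was fully covered over 1898 bp in every library. In this group CYP86A1, CYP86A2, CYP86A7 and CYP86B1 were the 4 with shorter H3K27me3 cover in every ubp5 library. This class held 21.4% of P450 genes and 8.10% of all genes. The pollen wall genes CYP703A2 and CYP704B1 were not marked by H3K27me3, and CYP704B1 had H2Aub over 355, 0 and 666 bp in ubp5, against 0, 0 and 155 bp in Col-0.

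Among the sterol and carotenoid genes, CYP51G1, the obligate sterol 14-demethylase, was marked by H2Aub only in ubp5, with 647, 0 and 782 bp in ubp5, against 0, 0 and 657 bp in Col-0. The sterol desaturases CYP710A3 and CYP710A4, which are neighbours, carried both marks. CYP710A3 had 1081 and 1158 bp of H3K27me3 in ubp5, against 1414 and 1572 bp in Col-0, while CYP710A4 was fully covered at 1724 bp in every library. The carotenoid hydroxylases CYP97A3, CYP97B3 and LUT1 had no H3K27me3 peak in any library, and their H2Aub cover was 713, 621 and 707 bp for CYP97A3 in ubp5, against 556, 556 and 621 bp in Col-0. All 6 CYP78A genes, regulators of organ size, carried H2Aub in both genotypes, as did 74.6% of P450 genes and 43.9% of all genes. Their group mean was 78.4% ± 16.3 of gene length in ubp5 and 90.2% ± 3.33 in Col-0 (SD, n = 3 each). By library it was 87.5%, 59.6% and 88.2% in ubp5, against 87.4%, 89.4% and 93.9% in Col-0. The genotypes thus overlapped, and ubp5 replicate 2 alone stood apart. CYP78A5, known as KLUH, lay under H3K27me3 peaks along all 2038 bp in every library. CYP78A6 and CYP78A9 had no H3K27me3. The 4 terpenoid genes had mean H3K27me3 cover of 53.1% and 65.6% in ubp5, against 75% in both Col-0 libraries, and CYP82G1 was the only one of these 4 whose cover was shorter in both ubp5 libraries than in either Col-0 library.

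Many P450 genes lie side by side. With no more than 1 other protein-coding gene between successive members, 135 members formed 40 runs, and 95 neighbouring pairs resulted. The pairs shared their H2Aub state in 63 cases and their H3K27me3 state in 68, and neighbours under 1 peak are not independent measurements. Of P450 genes, 74.6% were marked by H2Aub in both genotypes and 54.4% by H3K27me3 in neither. How often pairs that are not neighbours share a state was not computed. Single peaks covered up to 4 members in ubp5 and up to 6 in Col-0 for H2Aub, and up to 2 for H3K27me3. A run of 8 genes of the CYP702 and CYP705 families on chromosome 4 (8730499 to 8810512) was under H3K27me3 over 99.3% and 98.3% of its gene length in ubp5, against 99.5% and 100% in Col-0. This run holds CYP705A1, which cleaves the triterpene arabidiol in roots.

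The largest run held 9 CYP71B genes on chromosome 3 (9565627 to 9599988). Its H2Aub cover was 52.8%, 25.7% and 59.3% of gene length in ubp5, against 56.0%, 55.6% and 72.5% in Col-0, and its H3K27me3 cover 16.9% and 17.8% in ubp5, against 18.3% and 18.4% in Col-0. The 8 genes from CYP72A7 to CYP72A15, also on chromosome 3 (4912324 to 4939871), had no H3K27me3 in any library and were marked by H2Aub in both genotypes, at 55.6%, 41.9% and 56.2% in ubp5, against 53.6%, 75.1% and 79.7% in Col-0. The CYP81 run with CYP81H1 and CYP81D8 on chromosome 4 (17555899 to 17571743) had H2Aub over 77.4%, 58.3% and 81.7% in ubp5, against 73.5%, 93.8% and 94.5% in Col-0. In the last 2 runs, Col-0 replicate 1 was within the ubp5 range. By contrast, the runs CYP706A1 with CYP706A2 and AT3G61035 with CYP76C7 had no H3K27me3 in ubp5, against 73.8% and 79.6% of gene length for the first and 55.4% and 72.2% for the second in Col-0. Members in runs and single members had H3K27me3 on 35.6% and 42.7% in ubp5, and on 43.7% and 44.4% in Col-0.

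The proteins that supply electrons to P450s or hold them in place were examined as the other genes of the pathway. None of these 10 genes had an H3K27me3 call, as was the case for 76.4% of all genes. H2Aub was called in both genotypes on 4 (43.9% of all genes), only in ubp5 on 4 (25.1% of all) and in neither on 2 (28.1% of all). MAPR3, a membrane steroid-binding scaffold protein, was the only one with longer cover in every ubp5 library, with 615, 385 and 547 bp in ubp5, against 0 bp in all 3 Col-0 libraries. ATR1, the NADPH-P450 reductase, had 745, 508 and 740 bp in ubp5, against 0, 531 and 598 bp in Col-0, and ATR2 had 1223, 1556 and 1022 bp in ubp5, against 2264, 1022 and 2086 bp in Col-0. For both reductases the genotypes overlapped. CB5-A, CB5-B and CBR, which belong to the cytochrome b5 branch, were marked only in ubp5, and ubp5 replicate 2 had no peak on any of these 3.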

How the data were processed

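The authors immunoprecipitated chromatin of 12-day seedlings with antibodies to H2Aub and H3K27me3, mapped paired reads to TAIR10 with STAR 2.7.8a, and called broad peaks per library with MACS3 3.0.0, per the methods and the submitters' processing notes. Each deposited broad peak list gives a score, a fold ratio over background and 2 −log10 values (of p and of q). The deposited lists reach down to different q, so only peaks scoring over 30 were used in every library. The −log10 q was used to rank peaks for lists of equal covered length, and the fold was only summarised over peaks. Counts per gene are not part of these lists, so no counting interval is given and no test of reads was made. The study's own listing gives uniquely mapped reads per library, with a wide range among the H2Aub libraries, the fewest in ubp5 replicate 2 and the most in ubp5 replicate 3.

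Covered lengths were computed on the RefSeq annotation of TAIR10.1 (33056 nuclear genes) with Python 3.11.15, NumPy 2.4.6 and pandas 2.3.3, and plotted with Matplotlib 3.10.9. The functions were tested on simulated peaks. Groups came from the sample labels. Single genes were compared by exact permutation tests over libraries, with Benjamini-Hochberg adjustment over all protein-coding genes with a peak. Named genes were those with peaks in every library of only 1 genotype, the 5 largest separated differences per mark and direction among genes marked in both, all genes marked by H3K27me3 in 1 genotype, the 5 longest covers per mark, genes of known role, neighbouring runs and P450 partner proteins. The members, lists and rules were chosen with earlier results of these data known. CYP718, CYP87A2, CYP708A1 and the genes marked by H2Aub only in Col-0 were named after their values were seen. Alternatives used every deposited peak, peaks scoring over 60, equal covered length, 50% of the gene under peaks, 500 bp of upstream sequence, a peak in every library, same-numbered pairs as a replicate block, and omission of each library in turn.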

Additional observations from a re-analysis of the deposited data

How the results depend on the processing

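Most counts kept to within 1.5 times their main value, 94 of the 135 alternative counts. With a score over 60, P450 genes marked by H2Aub only in ubp5 numbered 33 (13.1%, against 26.0% of all) and only in Col-0 19. Longer H2Aub cover was found in 5 (1.98%, against 5.56%) and both marks in ubp5 in 50 (19.8%, against 9.41%). At equal covered length, 57 were marked by H2Aub only in Col-0 and 81 in both genotypes (32.1%, against 19.6% of all). Shorter H2Aub cover was found in 42 (16.7%, against 6.43%). H3K27me3 marked 7 only in Col-0 (2.78%, against 1.93%), and 38 had both marks in ubp5 (15.1%, against 6.85%). With 50% of the gene under peaks, 14 were marked by H2Aub only in Col-0 and 120 in both, and both marks stood on 44 in ubp5 and 53 in Col-0. With a peak required in every library, 45 were marked by H2Aub only in Col-0 and 112 in both (44.4%, against 23.1% of all). In this setting 52 had both marks in ubp5 (20.6%, against 9.43%). With all deposited peaks, 7 were marked by H3K27me3 only in ubp5 (2.78%, against 3.64% of all) and 11 had longer H3K27me3 cover (4.37%, against 4.79%). The share marked by H2Aub only in Col-0, below that of all genes with the main settings, was above it with a score over 60 (7.54%, against 3.26%), at equal covered length (22.6%, against 9.56%), with 50% of the gene under peaks (5.56%, against 3.56%) and with a peak in every library (17.9%, against 8.62%). The cause of these shifts was not tested.

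Leaving out 1 library gave, for H2Aub, 5 to 49 genes marked only in ubp5 (1.98% to 19.4%, against 9.45% to 38.1% of all). Only in Col-0 were 1 to 67 (0.397% to 26.6%, against 0.991% to 16.4%), and in both 125 to 186 (49.6% to 73.8%, against 30.4% to 43.8%). Longer cover was found in 8 to 49 (3.17% to 19.4%, against 13.9% to 36.9%) and shorter cover in 24 to 50 (9.52% to 19.8%, against 3.64% to 8.81%). For H3K27me3, 2 to 8 were marked only in ubp5 (0.794% to 3.17%, against 2.16% to 4.01% of all) and 9 to 26 only in Col-0 (3.57% to 10.3%, against 2.16% to 5.17%). In both were 94 to 102 (37.3% to 40.5%, against 17.7% to 18.5%). Longer cover was found in 9 to 18 (3.57% to 7.14%, against 3.82% to 6.05%) and shorter cover in 58 to 80 (23.0% to 31.7%, against 8.78% to 13.0%). Both marks stood on 52 to 95 genes in ubp5 (20.6% to 37.7%, against 9.44% to 16.7% of all) and 78 to 101 in Col-0 (31.0% to 40.1%, against 11.7% to 16.2%). The H2Aub difference of CYP82C2 became -600.0 bp with a score over 60 and -1337.7 bp at equal covered length. Of 905 alternative values for 115 single-gene differences, 801 moved by less than 1 SD and 102 by 1 SD or more. The SD was pooled over the libraries of both genotypes. Leaving out 1 library cannot move a difference by more than this SD, so the 801 do not measure stability.

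With a replicate block, comparing same-numbered libraries, 13 genes had longer H2Aub cover in every pair (5.16%, against 17.6% of all) and 45 shorter (17.9%, against 6.79%). For H3K27me3, 10 were longer (3.97%, against 4.08% of all) and 64 shorter (25.4%, against 9.52%). Deviations of same-numbered H2Aub libraries correlated at -0.133, 0.067 and 0.3 over 27444 genes, and those of other-numbered libraries at -0.317 to 0.258. With 3 libraries per genotype these values cannot decide whether the numbers pair the samples. For H3K27me3 the 2 values of 0.131 are equal by construction.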
